A study of Mus musculus with 3 samples.

Results

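Among hematopoietic stem cells (HSCs) profiled for open chromatin and RNA at once, 51 cells had less than 50% of their ATAC fragments in peaks and are called diffuse here. They are 1.64% (95% exact binomial interval 1.22% to 2.15%) of the 3108 called cells with more than 3000 fragments in peaks, out of 3757 called cells in all. They were compared with 2510 focused cells, whose share in peaks was at least 65% and whose total fragments lay within the 5th to 95th percentile of the diffuse cells, from 7560.5 to 61074.5 fragments. The remaining 547 cells above the floor belong to neither group; they picked which genes, windows and tiles were measured, and enter again where the whole range of the share is described. All cells came from 1 preparation of long-term HSCs sorted from bone marrow of wild-type female C57BL/6J mice aged 8 weeks, as Lin− Sca-1+ c-Kit+ cells with CD150 and without CD48 and CD34. Neither group carries a treatment or a transgene, and the number of animals pooled was not stated. DOGMA-seq reads the transcriptome, the accessible chromatin and antibody tags of the same permeabilized cell. With 1 ATAC and 1 RNA library, cells are not replicates, so both values are given with exact 95% intervals that cover counting error only, and no difference was tested.

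ATAC-seq uses a transposase that cuts DNA wherever nucleosomes and other proteins leave it free, so promoters and enhancers give many short fragments while packed chromatin gives few. Fragments that span a nucleosome are longer, which leaves a ladder of lengths. HSCs keep blood formation going throughout life; most of them rest, and their regulatory landscape is set by factors such as *Runx1*, *Gata2*, *Tal1*, *Erg* and *Mecom*.

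The share of fragments in peaks chose the groups, so its values only describe them. In diffuse cells it ran from 19.2% to 49.3% with a median of 40.6%, and in focused cells from 65.02% to 79.4% with a median of 70.6%. The 3 diffuse cells closest to the lower limit had 48.1%, 48.2% and 49.3% in peaks, and the 3 cells just beyond it had 50.3%, 50.6% and 50.9%. At the upper limit the 3 nearest cells left out had 64.94%, 64.97% and 64.995%, and the 3 nearest focused cells 65.02%, 65.04% and 65.06%. Only 3 cells lay within 0.02 below the lower limit and 4 within 0.02 above it, against 73 and 180 cells at the upper limit. A class made from a per-cell score is a range, not a type, and 152 cells lay between both limits.

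Diffuse cells had somewhat more ATAC fragments than focused cells, whose totals alone were limited to the range above. Their median was 16305 ATAC fragments (7384 to 194399), against 11801.5 (7572 to 35611) in focused cells. The diffuse cell with the most fragments, 194399, gave 14.9% of the 1303506 fragments of the diffuse cells, and it also had the most RNA UMIs of them, 52809. Focused cells gave 30983794 fragments together. Doublets were kept in both groups; sites covered by more than 2 fragments marked 17 of 51 diffuse cells (33.3%, interval 20.8% to 47.9%) and 142 of 2510 focused cells (5.66%, 4.79% to 6.63%). Such sites become more frequent with depth, and the part of doublets in the differences was not tested beyond leaving the marked cells out.

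The sorted identity was checked at promoters, the 1000 bp on each side of annotated starts. The 16 HSC genes had 22.7 fragments per 1000000 fragments of the group (FPM) per promoter in diffuse cells and 37.9 in focused cells, above every list of another lineage in both groups. The next lineage lists in diffuse cells were 5 endothelial genes at 10.1 and 6 stromal genes at 9.46 FPM per promoter, with *Esam* and *Pdgfra* as their most open promoters. Markers of mature blood cells were lower still in diffuse cells, at 8.34 for megakaryocyte, 4.70 for T cell, 4.60 for B cell, 4.06 for erythroid, 2.30 for NK cell, 1.76 for neutrophil, 1.66 for monocyte and 0.460 for mast cell and basophil genes. The 5 sorting gate genes, with *Cd34* and *Cd48*, whose proteins the gate excludes, had 8.29 in diffuse and 11.2 in focused cells. In both groups this was below the endothelial, stromal and megakaryocyte lists and the mean of all protein-coding promoters, 13.2 and 23.5. The HSC list was thus the most open lineage list in diffuse cells too, at a lower level, and the identity rests here on that list alone.

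The RNA of diffuse cells was the measure furthest from the rule, and it was lower by the median. Their median was 2869 RNA UMIs per cell (lowest 965, highest 52809), against 3847 (301 to 17301) in focused cells, a ratio of 0.746. Only 18 of 51 diffuse cells lay above that median, but the ranges overlapped widely. The mean went the other way: the 51 diffuse cells had 240443 UMIs together, of which 1 cell gave 52809, and the 2510 focused cells had 10250049. When each diffuse cell was set against the focused cells within 10% of its ATAC fragments, which left 41 diffuse cells with at least 5 such cells, the median ratio of UMIs was 0.520, and 33 of 41 were below 1. Relative to ATAC depth, diffuse cells had a median of 176.8 UMIs per 1000 fragments and focused cells 322.1.

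**Figure D1:**
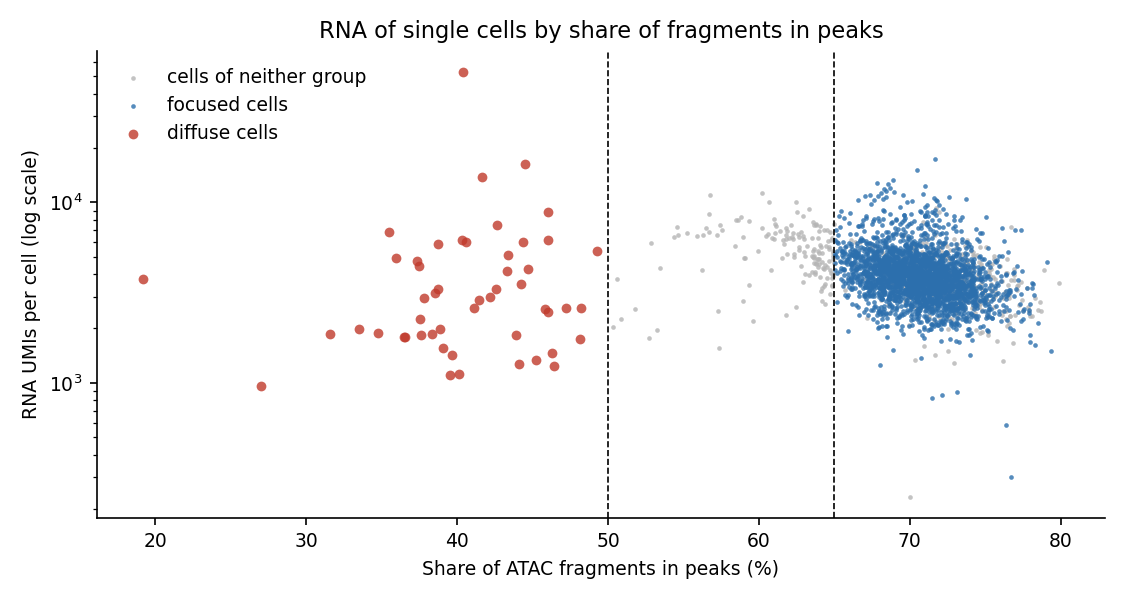
RNA UMIs per cell (log scale) against the share of ATAC fragments in peaks for the 3108 cells above the floor, each point 1 cell, with the 2 limits as dashed lines. Diffuse cells (red) had a median of 2869 UMIs and focused cells (blue) 3847, and 1 diffuse cell reached 52809.

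Diffuse cells detected a median of 1759 genes and focused cells 2015.5. At like depth the order turned: for the 40 diffuse cells with at least 5 focused cells within 10% of their UMIs, diffuse cells had a median of 1.06 times the number of genes (single cells from 0.990 to 1.16), and only 3 of 40 had fewer. Intronic UMIs, which come mainly from unspliced nuclear RNA, made up 46.6% (46.4% to 46.8%) of the UMIs of diffuse cells and 48.1% (48.1% to 48.2%) of those of focused cells, pooled over cells. The difference of -1.53 percentage points depended on the cells taken: it was -0.80 with 1 focused cell per diffuse cell and -4.14 without 14 diffuse cells with uneven chromosomes, a setting chosen after seeing the data. Single diffuse cells spread from 31.1% to 74.1% intronic, and 16 of 51 were above the focused median of 48.3%. Reads antisense to introns were more frequent in diffuse cells, with a median of 44.7% of intronic reads against 38.7%, and 42 of 51 diffuse cells lay above the focused median. Intergenic reads were a smaller part of mapped RNA reads in diffuse cells (median 15.4% against 17.1%).

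Nucleosomes shaped the fragments of diffuse cells differently depending on where the fragments lay. Short fragments, shorter than the DNA wound on a nucleosome (about 150 bp), made up 36.7% (36.6% to 36.8%) of the fragments of diffuse cells and 46.0% (45.9% to 46.0%) of those of focused cells, and 43 of 51 diffuse cells were below every focused cell. Within the 100000 tiles of 500 bp most open in the cells of neither group, short fragments were 51.4% in diffuse and 56.9% in focused cells. Outside these tiles the order was the opposite, 28.1% (27.98% to 28.18%) in diffuse and 22.7% (22.7% to 22.7%) in focused cells, and 43 of 51 diffuse cells lay above the focused median. The lower total of short fragments in diffuse cells thus goes with how few of their fragments were in tiles, 37.1% against 68.0%.

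Outside tiles the nucleosome ladder was flatter in diffuse cells. Fragments of 1 to 2 times that length, the size of 1 nucleosome with its linker, were 36.3% of the diffuse fragments there and 44.0% of the focused ones, and 29 of 51 diffuse cells were below every focused cell. At the crest, 160 to 169 bp, diffuse cells had 3.69% of their fragments outside tiles and focused cells 5.82%. In the trough before it, 110 to 119 bp, diffuse cells had 1.77% and focused cells 0.716%. Long fragments, 2 to 4 times the DNA of a nucleosome, were 24.1% of all fragments in diffuse and 18.6% in focused cells, and still longer ones 5.52% and 3.24%. In 45 of 51 diffuse cells the share of long fragments among all fragments was above that of every focused cell. Outside tiles alone the difference was smaller: long fragments were 28.1% in diffuse and 26.9% in focused cells, and 20 of 51 diffuse cells were above every focused cell.

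**Figure D2:**
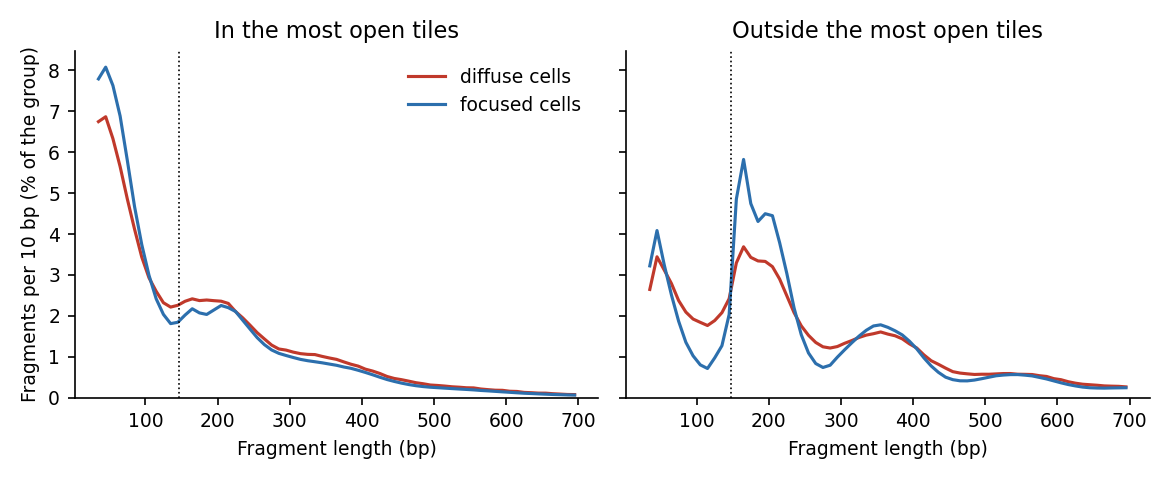
Fragment length (bp) against the percent of a group's fragments per 10 bp, in the most open tiles (left) and outside them (right), for diffuse (red) and focused cells (blue); the dotted line marks the DNA length of a nucleosome. Outside tiles the crest at 160 to 169 bp held 3.69% in diffuse and 5.82% in focused cells, and the trough at 110 to 119 bp 1.77% and 0.716%.

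The fragments that diffuse cells had outside peaks lay both in genes and between them. Between genes, outside tiles, diffuse cells had 29.9% of their fragments and focused cells 12.4%, a ratio of 2.42. Inside genes, away from promoters and tiles, the values were 30.01% and 17.25%, a ratio of 1.74. In each of these places all 51 diffuse cells were above every focused cell, which the rule nearly fixes. Tiles at promoters held 22.8% of diffuse and 42.9% of focused fragments, and distal tiles 14.3% and 25.1%. Both kinds of tile were lower by a like factor in diffuse cells: promoters took 61.5% of tile fragments in diffuse and 63.0% in focused cells. Cut sites within 50 bp of transcription starts were 20.4 times as dense as in the flanks in diffuse cells and 39.2 times in focused cells. Read pairs of low mapping quality, which repeats give, were a median of 11.3% in diffuse and 6.45% in focused cells, and every diffuse cell lay above the focused median.

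Gene-poor megabases took a larger part of the fragments in diffuse cells. In 1-Mb windows of chromosomes 1 to 19 with at least 500 fragments in the cells of neither group, the 17 windows without a start of a protein-coding gene held 0.468% (0.455% to 0.480%) of diffuse and 0.307% (0.305% to 0.309%) of focused fragments, a ratio of 1.52. That minimum left out 775 of 2473 windows, among them most of those without a start. The values that follow without it were added after seeing the data. Over all 338 windows without a start, taken with no minimum, the shares were 4.78% and 1.03%, a ratio of 4.66. The ratio fell step by step with gene density among the kept windows, to 1.33 at 1-4 starts, 1.08 at 5-9, 0.970 at 10-19 and 0.855 in the 254 windows with 20 or more. Outside tiles the kept windows gave a weaker pattern, with ratios of 1.18 without a start, 1.23 at 1-4 starts and 0.886 at 20 or more, so the lowest class was not the highest there. Over all windows with no minimum, again outside tiles, those without a start had 0.547 times the average density in diffuse cells and 0.186 times in focused cells. Of the same windows, those with 20 or more starts had 1.6 and 2.04 times the average. Fragments outside tiles in diffuse cells were therefore still denser in gene-rich megabases, less steeply than in focused cells. Inside tiles no such gradient was seen, with 0.193% of tile fragments in the kept windows without a start in both groups.

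Single megabases showed the same order. Across 1698 kept windows the log2 ratio of diffuse over focused fragments outside tiles had a Spearman rho of -0.527 with GC content and -0.425 with the number of protein-coding starts; windows share cells and base composition, so these describe the pattern only. The window with the highest ratio, 9.63, was on chromosome 2 from 98 to 99 Mb, with 36.5% GC and 2 protein-coding starts; this stretch is known for satellite repeats, to which reads can be assigned falsely. Next came chromosome 17 from 39 to 40 Mb at 6.24. The third, chromosome 7 from 108 to 109 Mb at 4.78, had 37 protein-coding starts, of which 34 were receptor genes of the odorant or vomeronasal families, so a high number of genes did not keep a window low. Among the 5 lowest windows, chromosome 3 from 30 to 31 Mb at 0.640 holds most of *Mecom*, which HSCs need to persist.

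Whole chromosomes also took different parts of the pooled fragments in diffuse cells. Chromosome 11 had 7.24% of diffuse and 8.51% of focused fragments, chromosome 7 had 5.87% and 6.81%, and chromosome 17 had 5.21% and 5.93%. Chromosome 6 rose from 4.95% in focused to 5.72% in diffuse cells, and chromosome 3 from 4.63% to 5.24%. A few cells weigh heavily on chromosome 6: outside tiles its pooled ratio was 1.18, but the median over diffuse cells was 1.03, and cell 1 of those described further on reached 2.29. The mean distance of the 19 autosomes from their share of sequence length was 0.664 percentage points in diffuse and 1.06 in focused cells. In tiles that distance was alike, 1.26 and 1.24.

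The X chromosome stood out among the chromosomes of diffuse cells. Female cells keep 1 of their X chromosomes silent and compact, so most peaks on X come from the active copy. X held 2.75% (2.72% to 2.78%) of the fragments of diffuse cells and 1.84% (1.83% to 1.84%) of those of focused cells, a ratio of 1.498, the highest among the autosomes and X. Single diffuse cells ran from 1.12% to 3.95%, and 34 of 51 were above every focused cell. Tile fragments did not share this: X had 1.45% of them in diffuse and 1.49% in focused cells. Outside tiles X held 3.52% and 2.58%. There 44 of 51 diffuse cells were above the focused median, but only 7 above every focused cell. In both groups X took more of the fragments outside tiles than in tiles. Part of its larger share of all fragments thus goes with how few diffuse fragments were in tiles. Whether the gain lay on the silent copy was not tested, because fragments were not assigned to alleles.

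Chromosome shares were uneven from diffuse cell to diffuse cell, in a way the pooled values do not show. For each cell the fragments outside tiles on the 19 autosomes were divided by the shares in the focused cells pooled. The spread beyond counting error, as a percent of a chromosome's share, had a median of 14.6% in diffuse cells (6.04% to 68.7%) and 6.27% in focused cells (0% to 36.1%). Around the mean shares of their own group the medians were 13.1% and 6.26%, so most of the spread remained once the common shift of diffuse cells was taken out. The spread with counting error included (chi-square per degree of freedom), which grows with depth, was above that of every focused cell in 14 of 51 diffuse cells (27.5%, interval 15.9% to 41.7%). Beyond counting error, 7 of 51 diffuse cells were above every focused cell.

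In 7 diffuse cells a chromosome reached 2 times its focused share or more, and in the same 7 cells another chromosome was at 0.5 times or less. Of 2510 focused cells, 2 had a chromosome at 2 times or more and 0 had one at 0.5 times or less, which allows a share of up to 0.147%. Numbering the diffuse cells by rising share in peaks, cell 2, with 28384 fragments, had chromosome 15 at 2.51 and chromosome 3 at 0.197. Cell 7, with 49787 fragments, had chromosome 1 at 3.09 and chromosome 16 at 0.421. Cell 22 had chromosome 18 at 3.05 and chromosome 19 at 0.311, and cell 39 had chromosome 4 at 2.51 and chromosome 17 at 0.303. Cell 1, the most diffuse at 19.2% in peaks, had chromosome 6 at 2.29 and chromosome 16 at 0.379. Cell 3 had chromosome 18 at 2.29 and chromosome 9 at 0.314, and cell 46 had chromosome 16 at 2.07 and chromosome 12 at 0.272. These are the highest and the lowest chromosome of each cell, and several cells had more than 1 past these limits. Cell 39 also had chromosomes 13 and 7 at 2.35 and 2.12, and cell 22 had chromosome 8 at 2.59. In cell 1, chromosomes 7, 8 and 12 were at 0.393, 0.454 and 0.474 as well. No chromosome was the highest in more than 2 of these cells.

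The deviations mostly ran along a whole chromosome in these 7 cells, which picking them by whole-chromosome ratios of the same fragments favors. The ratios before and after the midpoint of each chromosome had a correlation over 19 chromosomes of 0.439 to 0.877 (median 0.803). In the 37 diffuse cells outside the 14 the median was 0.0972 (highest 0.568). In focused cells it was 0.0823 (highest 0.771), so the ranges overlapped here as well. Tile fragments deviated in the same direction, with a correlation of 0.319 to 0.798 (median 0.669) between ratios inside and outside tiles. In the 37 diffuse cells outside the 14 it ran from -0.360 to 0.761, with a median of 0.235, so the ranges overlapped. In cell 7 chromosome 1 was at 3.09 outside tiles and 1.25 in tiles. In cell 2 chromosome 3 was at 0.197 outside tiles and 0.0746 in tiles, so there the loss was larger in tiles. These 7 cells had a median of 1854 RNA UMIs, 57.8% intronic UMIs and 44.3% short fragments. The 37 diffuse cells outside the 14 had 2869 UMIs, 44.3% intronic UMIs and 35.3% short fragments. All 14 together had 2867 UMIs, 48.6% intronic UMIs and 36.2% short fragments. They also had more ATAC fragments than the 37, a median of 26945 against 13787. The doublet mark was on 8 of the 14 cells and on 9 of the 37, so it was more frequent in the 14. Among these 7, 3 carried the doublet mark. Cell 39 combined few fragments, 7605, with 16308 UMIs. These cells were picked by their chromosome shares after the values were seen, and the cause of the deviations was not tested.

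**Figure D3:**
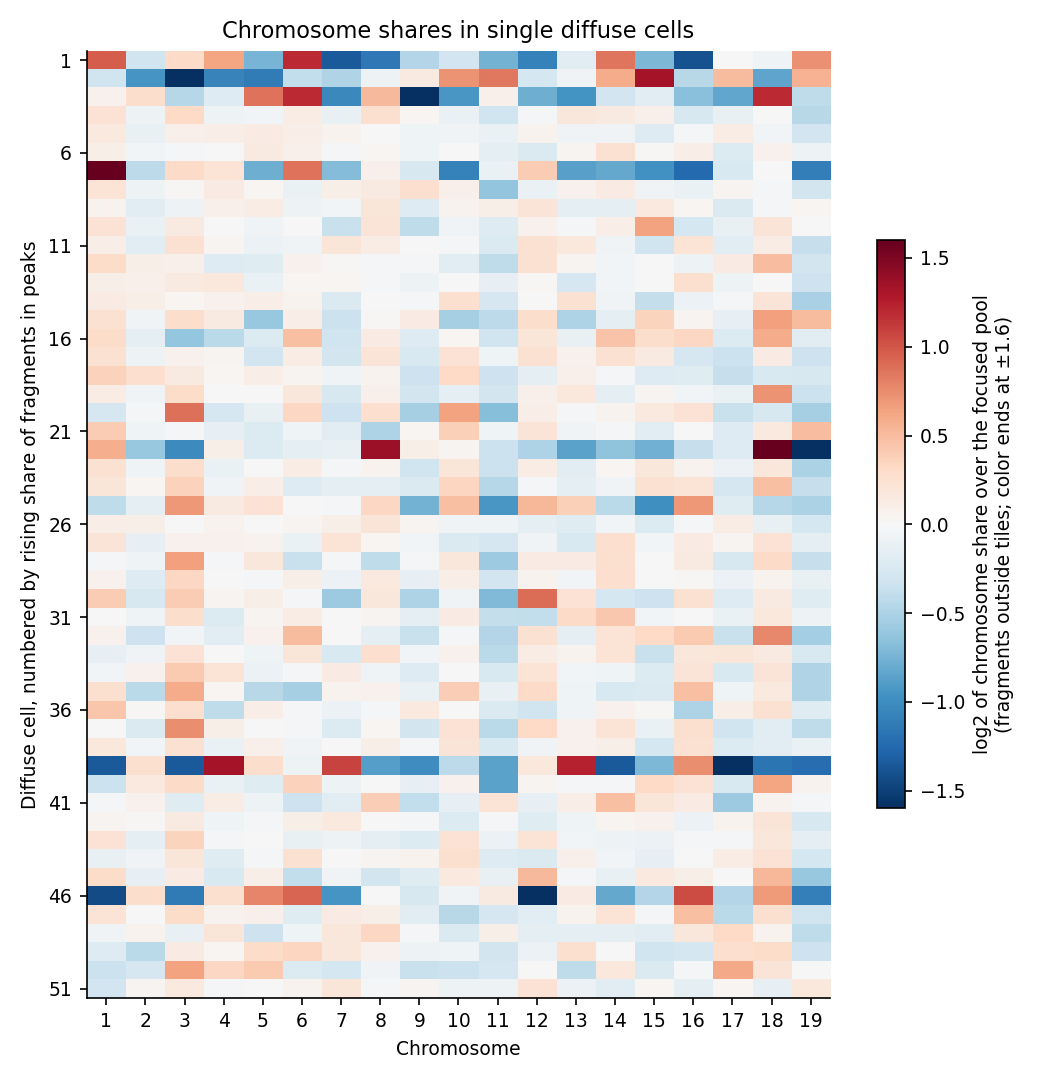
Share of each autosome in each of the 51 diffuse cells over its share in the focused cells pooled, as log2 (color), from fragments outside tiles; rows are cells by rising share in peaks. Rows 1, 2, 3, 7, 22, 39 and 46 hold chromosomes at 2 times or more and at 0.5 times or less, whereas most rows stay near 0.

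Over gene bodies, taken with the 2000 bp upstream, diffuse cells had more fragments on many of the longest genes and fewer on short genes. Both counts restate the rule in part, since short genes are mostly peak. Of 4702 protein-coding genes with at least 300 fragments in the cells of neither group, 101 (2.15%) were over 1.5-fold higher in FPM in diffuse cells and 2309 (49.1%) over 1.5-fold lower. The median ratio was 0.527 for 633 genes under 10 kb, 0.601 for 1922 genes of 10 to 50 kb, 0.772 for 1645 genes of 50 to 200 kb and 1.12 for 502 genes over 200 kb. Of the 101 higher genes, 91 were over 200 kb long. Scaled by fragments outside tiles in place of all fragments, 12 genes were higher and 4531 lower. This scaling moves all genes by the same factor, so it shows only that the counts depend on the scale chosen. With tiles taken out of the gene bodies, but still per all fragments, 139 were higher and 0 lower. The minimum then applied to fragments outside tiles, so fewer genes were tested. Tiles held 37.1% of diffuse and 68.0% of focused fragments, so the rule largely fixes this direction.

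Long neuronal genes, which encode adhesion molecules and synaptic scaffolds, had the highest body ratio among the lists with members past the minimum. All 16 of 36 that passed the minimum were above 0 in log2 in diffuse cells, 14 of them past 1.5-fold, against 2.15% of all genes and 91 of 502 genes over 200 kb. Over all 36 genes diffuse cells had 8639 and focused cells 2375 FPM, a ratio of 3.64 (3.57 to 3.71). Their promoters had a ratio of 0.705 (0.631 to 0.785), beside 0.562 for all protein-coding promoters, so they shared the general fall of promoters. *Ctnna3*, an adherens junction gene of 1573570 bp on chromosome 10 (63430098 to 65003667, GRCm38), shows both in 1 gene. Its body had 327 FPM in diffuse and 165 in focused cells (ratio 1.98, 1.79 to 2.19), and its promoter 30.7 and 92.8 (ratio 0.331, 0.236 to 0.452). *Cadm2*, a synaptic adhesion gene of 965488 bp, had a body ratio of 2.73 (2.30 to 3.22) and a promoter ratio of 0.511.

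Receptor families that lie in silent clusters were also higher in diffuse cells. The 1135 annotated odorant receptor genes had 1623 FPM over gene bodies in diffuse and 542 in focused cells, a ratio of 2.99 (2.86 to 3.13). The 331 vomeronasal receptor genes had 779 and 150, a ratio of 5.19 (4.84 to 5.55). Few members passed the minimum, 1 (at a log2 of -0.27) and 0 over gene bodies, so these are sums over all members; 302 odorant receptor genes had no fragment in diffuse cells. Their promoters summed to 3.51 (3.27 to 3.76) and 2.59 (2.21 to 3.01), also higher in diffuse cells. The most open promoter of each family went the other way: *Vmn1r4*, whose start lies within 2000 bp of that of *Nt5c3*, had a promoter ratio of 0.392 (0.238 to 0.607), and *Olfr646* one of 0.369 (0.183 to 0.664). Marker genes of B cells summed to a ratio of 1.52 (1.37 to 1.69) over bodies, where the long gene *Pax5* had 1.47, and to 0.689 (0.516 to 0.903) at promoters, an interval that holds the 0.562 of all promoters.

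Among gene bodies with at least 1000 fragments in the cells of neither group, *Sox5* was highest in diffuse cells at a ratio of 1.51 (1.36 to 1.68), which turned to a log2 of -0.38 when scaled by fragments outside tiles. This transcription factor gene of cartilage and nerve cells spans 953553 bp on chromosome 6 (143828425 to 144781977). It was followed by *Iqsec1* (1.31), *Prkg1* (1.29), the read-through model *Gm42416* over the protocadherin cluster (1.27), *Frmd4a* (1.23) and *Mad1l1* (1.21). Scaling by fragments outside tiles moves all gene bodies by the same factor, so these genes also turned below a log2 of 0. The lowest was *Hspa8*, a heat shock chaperone gene of 9104 bp, at 0.350 (0.288 to 0.422), before *Hdgfl2* (0.395), *Rnf5* (0.396), *Ppp1r10* (0.409), *Crlf2* (0.424) and *Gm44973* (0.429). Length separated highest from lowest: the highest 6 spanned 312864 bp or more, and the lowest 6 at most 20974 bp. So did the part of their fragments in tiles in the cells of neither group, at most 58.6% in the highest and 95.2% or more in the lowest.

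Compact housekeeping and response genes were near the lower end as groups. Over gene bodies the 67 replication-dependent histone genes had a ratio of 0.503 (0.474 to 0.533) and all 4 that passed were past 1.5-fold lower. The 14 immediate early genes, which stress and cell isolation can switch on, had 0.549 (0.519 to 0.580), and 10 of 10 that passed were past 1.5-fold lower, against 49.1% of all genes and 565 of 633 genes under 10 kb. Ribosomal protein genes had 0.551 (0.532 to 0.570) over 88 genes, S phase genes 0.585 and G2/M genes 0.615.

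**Figure D4:**
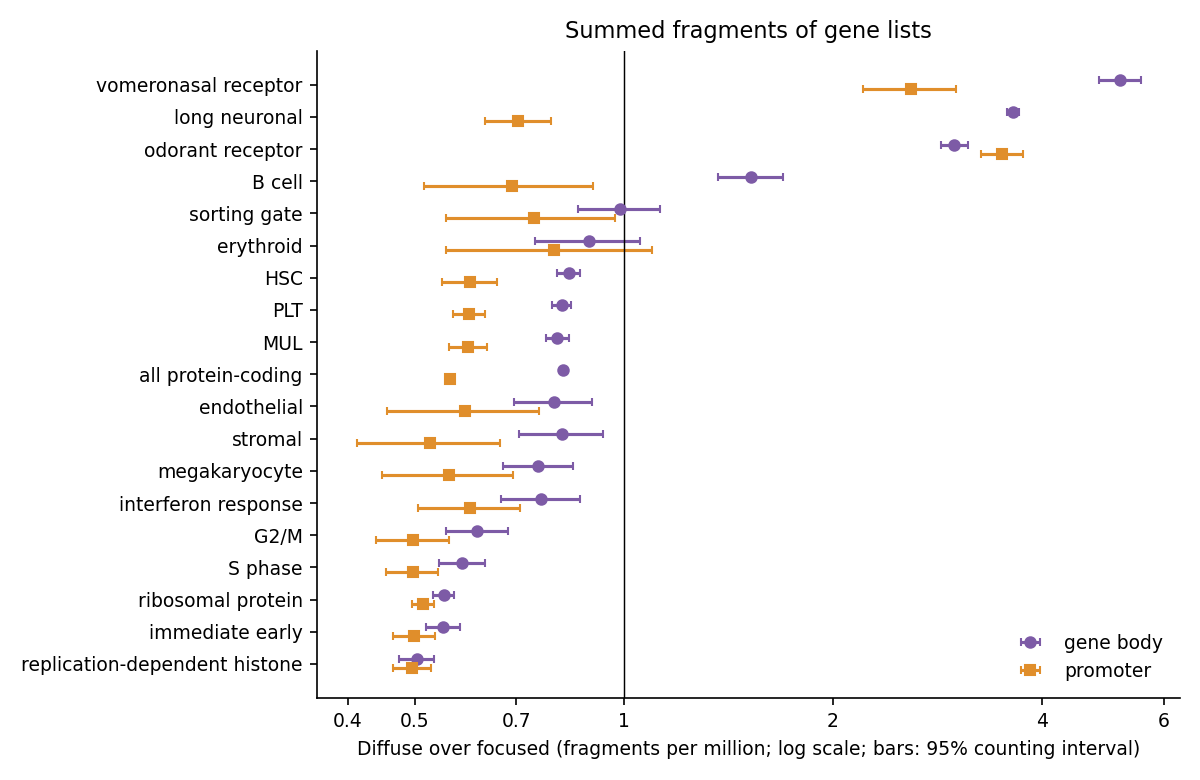
FPM in diffuse over focused cells (log scale) for 19 gene lists, summed over the gene bodies (circles) and promoters (squares) of all members; bars are exact 95% counting intervals. Vomeronasal receptor, long neuronal and odorant receptor gene bodies were at 5.19, 3.64 and 2.99, and histone genes at 0.503.

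Stem cell genes as a group were near all genes in their sum in diffuse cells. Over gene bodies the 16 HSC genes had 2163 FPM in diffuse and 2598 in focused cells, a ratio of 0.833 (0.802 to 0.865), beside 0.816 for all protein-coding genes, and 3 of 11 that passed were past 1.5-fold lower and 0 higher, against 49.1% and 2.15% of all genes and 8 and 91 of 502 genes over 200 kb; 11 genes are too few to tell these shares apart. Their median log2 was -0.22, beside -0.58 over all genes tested, without regard to length. *Fgd5*, a marker of long-term HSCs, had a body ratio of 1.04 (0.830 to 1.29), *Prdm16*, which HSCs need to maintain themselves, 0.951 (0.865 to 1.04), and *Erg* 0.895 (0.789 to 1.01). *Mecom*, the member with the most fragments, had 361 and 460 FPM (0.786, 0.716 to 0.862), and *Runx1* 288 and 335 (0.860, 0.774 to 0.953). Both span more than 200 kb, and both lay below the median of 1.12 of genes of that length. *Tal1*, a short gene that specifies blood, was the lowest that passed at 0.609 (0.478 to 0.765), beside *Hlf* at 0.657 and *Gata2* at 0.660. Genes of the sorting gate were seen at few fragments except *Kit*, the receptor for stem cell factor, which had 124 and 110 FPM over its body (ratio 1.12, 0.952 to 1.31). *Slamf1*, which encodes CD150, had 24 fragments in all diffuse cells and a ratio of 0.593 (0.378 to 0.888). *Cd34* and *Cd48*, whose proteins the gate excludes, had 19 and 14 fragments, and *Ly6a* had 2.

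Most promoters that passed the minimum were lower in diffuse cells, so each was set against the median promoter, whose ratio was 0.535. Of 7951 promoters with at least 100 fragments in the cells of neither group, 552 (6.94%) were over 1.5-fold above that median in diffuse cells and 390 (4.91%) over 1.5-fold below it. Which count was larger depended on the setting: thinned to 5000 fragments per cell they were 1302 and 1410, and without doublet marks 1011 and 1054. Leaving out doublet marks also left only 34 diffuse cells, so what moved the counts was not tested. Of the HSC list 11 of 16 promoters passed, with a median log2 of 0.16 from that of all promoters; 1 was past 1.5-fold above it, the homeobox gene *Hoxb5* at 0.71 (29 and 800 fragments), and 0 were below. *Hoxb5* turned to -0.57 when cells were thinned to 5000 fragments. The *Erg* promoter was at 0.53 and that of *Mllt3*, the lowest of the list, at -0.15. At the *Kit* promoter the value was 0.51. The whole HSC list summed to a promoter ratio of 0.5999 (0.546 to 0.657), against 0.562 for all protein-coding genes. Immediate early promoters had a ratio of 0.499 (0.465 to 0.534), with 0 of 14 past 1.5-fold from the median in either direction, and their lowest was *Btg2*, an antiproliferative gene, at -0.48. S phase promoters had a ratio of 0.496; 1 of 13 that passed was above, the helicase gene *Hells* at 1.03, and *Gins2*, of the replicative helicase, was at -0.50. Among G2/M genes 1 of 9 was below, *Cdk1*, which drives entry into mitosis, at -1.67 with 8 fragments in diffuse and 1203 in focused cells.

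Lists of other lineages were thin at promoters. The 6 monocyte promoters had a ratio of 0.294 (0.156 to 0.505), on 13 fragments in diffuse cells, with *Irf8* giving 10 of them. Megakaryocyte promoters had 0.560 (0.448 to 0.693), with *Gp9*, a subunit of a platelet receptor, at a log2 of 0.54 from the median, *Gp1ba*, another subunit, at -0.77 and *Itga2b* at -0.19. Endothelial promoters had 0.591, stromal 0.526, interferon response genes 0.60, erythroid genes 0.792 (0.555 to 1.10), T cell genes 0.573 and neutrophil genes 0.904 (0.568 to 1.37). Most of these intervals hold the 0.562 of all genes. The 5 NK cell promoters had 2.05 (1.12 to 3.47), on 15 fragments in diffuse cells. Of them 0 passed the minimum, and 3 had no fragment in diffuse cells. Odorant and vomeronasal receptor promoters, also with few fragments each, were higher too, at 3.51 and 2.59. Over bodies NK cell genes had 1.33 (0.920 to 1.87) and mast cell and basophil genes 1.75 (1.05 to 2.76).

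At the ends of the promoter order, among those with at least 300 fragments in the cells of neither group, were 2 predicted genes in the satellite-rich window of chromosome 2. *Gm10801* had a ratio of 1.88 (1.61 to 2.19) and *Gm10800* one of 1.81 (1.65 to 1.98). *Kdm2b*, which recruits Polycomb to CpG islands, followed at 1.03 (0.839 to 1.26), then *Myo18a* (1.00), *Plec* (0.989) and *Akt1* (0.942). The lowest were *Swsap1*, a gene of homologous recombination, at 0.207 (0.129 to 0.314), *Gtpbp2* (0.233), *B3gntl1* (0.261), and a pair with roles in mitochondria, *Tfb1m* (0.265) and *Polg* (0.269), before *Vamp1* (0.275). The lowest 6 rested on 22 to 37 fragments in diffuse cells each. Among ribosomal protein promoters *Rpl34* was highest (1.00) and *Rpl35* lowest (0.267), and among histone promoters *Hist1h4j* (0.849) and *Hist1h2bp* (0.282).

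Sequence separated tiles weakly in diffuse cells. Tiles were scanned on both strands for 13 short strings; GAGGAAGT for SPI1 and CCGGAAGT for other ETS factors end alike, and a match is not a bound site. Tiles with the CREB string TGACGTCA took 2.62% of tile fragments in diffuse and 3.15% in focused cells, a ratio of 0.831 (0.817 to 0.846). The ratio was 0.844 for NRF1 (GCGCATGCG), 0.857 for NFY (CCAATCA), 0.894 for ETS, 0.935 for KLF/SP (GGGGCGGGG) and 0.955 for CTCF (AGGGGGCGC). Strings of blood factors were close to 1: SPI1 at 0.997, RUNX (TGTGGTT) at 0.990 and AGATAAG, the string of GATA factors, at 0.987. AP-1 (TGA and TCA with 1 base between) was at 0.994, STAT (TTC and GAA with 3 bases between) at 0.996, MEIS (TGACAG) at 1.01 and the E-box CAGCTG at 1.02. Within classes of like GC the log2 was -0.26 for CREB, -0.24 for NRF1 and -0.23 for NFY tiles. Tiles with the most GC, from 60.2% to 88.6%, had a ratio of 0.985.

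Promoter windows of 300 bp from RefSeq (GRCm38.p6), found for 6374 of the promoters that passed, again had CREB, NFY and NRF1 strings as the lowest. Of them 4.22% held the CREB string, against 1.88% of all 27025 windows, and these had a median log2 of -0.14 from the median promoter in diffuse cells. The NFY string was in 12.8% (8.20% of all windows), with a median of -0.11, and the NRF1 string in 5.08% (1.81%), with -0.10. Promoters without these strings had medians of -0.00, 0.00 and -0.01. These differences are small beside the range of promoters. Low promoters did not all hold these strings: none was found in *Gtpbp2*, *B3gntl1*, *Tfb1m*, *Polg* or *Vamp1*. The *Gp9* promoter, at a log2 of 0.54 above the median, held an NFY string. The windows of 4 genes with low promoters in diffuse cells are shown 5′ to 3′ on the strand of the gene. The strings named here, or their complements, are in capitals: an NFY string in *Cdk1* (chr10:69352863-69353162, minus strand), an SPI1 and an NFY string in *Swsap1* (chr9:21955503-21955802, plus strand), a CREB string in *Btg2* (chr1:134079106-134079405, minus strand), and overlapping NRF1 strings on both strands in *Ctnna3* (chr10:63429848-63430147, plus strand). The MEIS string TGACAG, also in the *Swsap1* window, was left in lower case.
Cdk1: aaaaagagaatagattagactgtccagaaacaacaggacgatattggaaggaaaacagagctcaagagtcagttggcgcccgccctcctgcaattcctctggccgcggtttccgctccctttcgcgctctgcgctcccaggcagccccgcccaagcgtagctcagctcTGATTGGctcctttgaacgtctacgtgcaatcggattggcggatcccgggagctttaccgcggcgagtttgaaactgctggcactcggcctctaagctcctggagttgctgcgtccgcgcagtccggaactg
Swsap1: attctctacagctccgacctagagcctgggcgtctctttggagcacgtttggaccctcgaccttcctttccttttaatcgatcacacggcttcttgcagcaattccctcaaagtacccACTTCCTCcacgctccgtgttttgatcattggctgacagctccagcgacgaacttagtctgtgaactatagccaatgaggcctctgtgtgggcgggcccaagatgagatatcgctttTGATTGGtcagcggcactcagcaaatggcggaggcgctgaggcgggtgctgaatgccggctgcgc
Btg2: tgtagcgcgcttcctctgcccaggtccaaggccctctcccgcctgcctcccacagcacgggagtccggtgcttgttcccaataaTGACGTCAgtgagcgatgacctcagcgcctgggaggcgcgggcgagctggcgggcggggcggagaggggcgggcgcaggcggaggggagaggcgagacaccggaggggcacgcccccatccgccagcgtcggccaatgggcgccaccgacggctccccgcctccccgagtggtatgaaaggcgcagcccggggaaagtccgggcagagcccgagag
Ctnna3: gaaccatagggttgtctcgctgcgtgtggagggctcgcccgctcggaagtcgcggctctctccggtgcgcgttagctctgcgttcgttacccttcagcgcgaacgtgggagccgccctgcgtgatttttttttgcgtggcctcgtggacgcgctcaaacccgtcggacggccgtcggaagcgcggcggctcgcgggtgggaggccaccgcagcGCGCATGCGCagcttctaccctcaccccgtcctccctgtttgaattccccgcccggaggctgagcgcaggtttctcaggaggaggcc

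Platelet-biased (PLT) and multilineage (MUL) HSCs are subtypes with different blood output, and the study lists genes whose expression differs between clones of both kinds. In sums over whole gene bodies and promoters diffuse cells showed little shift between them. Of the 67 PLT and 62 MUL genes listed, 65 and 58 were found in the annotation. Over gene bodies the 65 PLT genes held 4067 fragments of diffuse cells and the 58 MUL genes 2665, a PLT to MUL ratio of 1.53 (1.45 to 1.603), and focused cells had 1.51 (1.49 to 1.52). The quotient was 1.01, and at promoters 1.00. Outside tiles it was 0.921, with 1.59 (1.49 to 1.70) in diffuse and 1.73 (1.70 to 1.76) in focused cells, and in tiles 1.03. As a sum each list fell alike, to 0.813 (0.788 to 0.839) and 0.802 (0.772 to 0.834) of the focused level. By member they were less alike: 9 of 20 PLT genes that passed were past 1.5-fold lower and 2 of 15 MUL genes, against 49.1% of all genes. Their median log2 values were -0.52 and -0.31, and the difference was not tested. *Vwf*, a marker of platelet bias that encodes a clotting protein, had a body ratio of 0.861 (0.733 to 1.01), and *Neo1*, another PLT marker, 0.824 (0.616 to 1.08). The MUL markers *Ctla2a* and *Sox4* had 0.689 (0.406 to 1.10) and 0.653 (0.469 to 0.887). The PLT pair spans 139906 and 161755 bp and the MUL pair 2471 and 4795 bp, and short genes were lower in general. At PLT promoters *Oxr1*, the most open, was at 0.582 and *Tgfbr3*, a receptor for TGF-beta, highest at 1.05 (0.737 to 1.45), with *1810062G17Rik* lowest at 0.334. At MUL promoters *Srsf2*, a splicing factor gene, was at 0.413, *Ramp1* highest at 0.994 and *Tipin* lowest at 0.320.

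Values along the whole range of the share in peaks show where the diffuse cells stand. The 36 cells with 50% to 60% of fragments in peaks had a median of 6193 RNA UMIs, more than both the 29 diffuse cells at 40% to 50% (3322) and the 22 diffuse cells under 40% (1991.5), and more than the 1056 cells at 65% to 70% (4215.5). By the median of each bin, RNA thus rose as the share fell, up to the bin of 50% to 60%, and was low again in diffuse cells. Median ATAC fragments rose along the same bins, from 8336 above 75% to 19379.5 at 50% to 60%. They were 14176 at 40% to 50% and 18069.5 below 40%, and the bins were not matched for depth. Within the bin of 50% to 60%, some cells close to 50% already had fewer UMIs than the focused median. Where the fall in RNA began was not tested. The X chromosome went from 1.79% of fragments in cells above 75% to 1.91% at 50% to 60%, and then to 2.79% at 40% to 50% and 2.71% below 40%. Short fragments went from 50.1% to 43.1% and then to 35.9% and 35.2%. The chromosome spread with counting error included was 1.68 above 75%, 3.79 at 50% to 60% and 12.3 and 13.3 in diffuse cells. From the bin of 50% to 60% to that of 40% to 50%, X and the chromosome spread changed by more than over all bins above 50%, and short fragments by about as much. Within the 51 diffuse cells the share in peaks had a Spearman rho of 0.11 with RNA UMIs and -0.38 with the share of gene-poor windows.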

How the data were processed

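ATAC and RNA were read from the same barcodes of 1 preparation of HSCs; the antibody counts were not used here, because no table at hand tied them to cells. The authors processed both libraries in Cell Ranger ARC 2.0.2 (reference mm10). They deposited per barcode how many reads, UMIs, genes and fragments were counted, with the position of each unique fragment; no deposited value is normalized. Cells were called by that software, and 1 set of called barcodes serves both libraries. Members and gene lists were chosen with earlier results of these data known. Fragments of called cells on chromosomes 1 to 19, X and Y (38419744) were counted once each, in 500-bp tiles, 1-Mb windows, gene bodies and promoters of GENCODE protein-coding genes on GRCm38, whose chromosome lengths no fragment exceeded. Levels are fragments per 1000000 fragments of the group (FPM), with 0.5 added to both counts for log2. Minimums for genes (300 over bodies, 100 at promoters) and windows (500) were taken in the cells of neither group. Intervals are exact 95% binomial or Poisson intervals. Named genes are the sorting gate and HSC lists, the 6 highest and 6 lowest bodies (1000 fragments or more) and promoters (300 or more), the most open promoter of each other list with its highest and lowest where at least 3 passed, and *Vwf*, *Neo1*, *Ctla2a* and *Sox4*. Motif strings, the chromosome spread and the list of windows at both ends were chosen after seeing the data. The ratio, its interval and the chromosome spread were tested on simulated counts. Scripts used Python 3.11.15, pandas 2.3.3, scipy 1.17.1, numpy 2.4.6 and, for figures, matplotlib 3.10.9.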

Additional observations from a re-analysis of the deposited data

Results flagged for a closer look

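Fragments appeared on chromosome Y and on unplaced scaffolds, which were not compared as places of their own, above the limit that a count of 0 allows in either group. Chromosome Y held 0.0144% (0.0124% to 0.0166%) of the fragments of diffuse cells, 188 of 1305000, and 0.0139% (0.0135% to 0.0143%) of those of focused cells, although the mice were female. Unplaced scaffolds held 0.114% (0.109% to 0.120%) in diffuse cells and 0.132% (0.130% to 0.133%) in focused cells, and the scaffold JH584304.1 alone 0.0844% and 0.0895%. Unlike chromosome X, neither place took a larger part of the fragments in diffuse cells beyond counting error.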

How the results depend on the processing

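Of 96 alternative values of the main comparisons of diffuse with focused cells, 38 moved beyond counting error or, for counts of genes, past 1.5 times, and 58 did not. No alternative value of RNA UMIs or of the PLT to MUL ratio was classed as moved. The interval of the diffuse median of RNA UMIs, 1997 to 3762, reflects the spread of cells rather than counting error. Outside tiles, however, the PLT to MUL quotient was 0.921, against 1.01 over whole gene bodies. The intronic share of diffuse cells stayed below that of focused cells, by -2.03 percentage points with stricter limits, -1.29 with looser limits, -1.73 when matched on fragments in peaks, -0.80 with 1 focused cell per diffuse cell, -2.23 without doublet marks and -2.15 as a median per cell. It was -2.07 without the deepest diffuse cell and -4.14 without the 14 diffuse cells with uneven chromosomes, settings chosen after seeing the data. The difference in short fragments, under the DNA length of a nucleosome, was -10.0 with stricter limits, -8.93 with looser limits, -9.34 matched on fragments in peaks, -9.40 with 1 focused cell per diffuse cell, -9.61 without doublet marks, -9.60 thinned to 5000 fragments and -10.4 for fragments under 120 bp. Chosen after seeing the data, it was -9.71 without the deepest cell and -10.9 without the uneven cells. Windows without a start had ratios of 1.599 with stricter limits, 1.47 with looser limits and 1.48 without doublet marks. Settings chosen after seeing the data gave 1.43 without the uneven cells, 1.18 outside tiles and 4.66 with no minimum. Higher gene bodies numbered 12 and lower ones 4531 when scaled by fragments outside tiles, which moves all gene bodies by the same factor. They numbered 1 and 85 among the fewer genes with 1000 or more fragments. Without tiles, but still per all fragments, 139 were higher and 0 lower. The rule largely fixes this direction, and fewer genes passed the minimum there. Promoter counts moved with several settings. Above and below the median there were 830 and 611 with 1 focused cell per diffuse cell, and 1011 and 1054 without doublet marks. Thinned, there were 1302 and 1410, and among the fewer promoters with 300 or more fragments 44 and 25. Which count was larger thus depended on the setting. Below it there were 245 with looser limits and 669 without the uneven cells (chosen after seeing the data). Of 1045 values of named genes, 13 were classed as reversed, 107 as moved and 925 as neither. These classes do not count every change of sign: thinned, 85 of 112 values kept their sign and only 5 were classed as reversed. Reversed promoter values are given as log2 from the median promoter. The *Ly6a* promoter went from -1.16 to 0.14 (looser limits), 0.48 (without doublet marks) and 0.87 (thinned). It had 0 fragments in diffuse and 49 in focused cells, so without doublet marks or thinned its value rests on the added 0.5 and gives no direction. *Slamf1* went from 0.84 to -0.83 (without doublet marks) and -0.033 (without the uneven cells), and *Hoxb5* from 0.71 to -0.57 (thinned). The *Neo1* promoter went from 0.91 to -0.46 (without doublet marks) and -1.81 (thinned). That of *Hist1h4j* went from 0.70 to -0.17 (without the uneven cells) and -0.74 (thinned). Over bodies the log2 of *Tek* and of *Sox5* went from 0.60 to -0.38 when scaled by fragments outside tiles, a shift common to all gene bodies. *Robo4* went from -0.85 to 0.10 when thinned. No paired analysis was possible because each cell belongs to 1 group and 1 preparation was made. The cause was not tested.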

Other observations

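Diffuse cells differed in the technical columns of both libraries, apart from the share in peaks. Mitochondrial read pairs had a median of 0.280% in diffuse and 0.238% in focused cells, but reached 29.3% in a focused cell and only 6.07% in a diffuse one. Chimeric read pairs were a median of 0.418% in diffuse and 0.244% in focused cells, and 10 of 51 diffuse cells were above every focused cell. Duplicates were 64.98% and 70.4% of read pairs, with every diffuse cell below the focused median, and each unique fragment rested on 4.24 and 4.52 read pairs. Unmapped read pairs were 1.89% in diffuse and 2.18% in focused cells.

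Promoters outside the most open tiles held a median of 3.05% of fragments in diffuse cells, against 2.36% in focused cells. Of 51 diffuse cells, 50 were above the focused median. The rule favors a rise in every place outside tiles, and the rise at promoters was the smallest. Pooled, its ratio was 1.26, against 1.74 in genes and 2.42 between genes. Antisense reads were more frequent over exons of diffuse cells too, with 16.5% of exonic reads against 14.8%.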
